A study of Mus musculus with 16 samples.

Results

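Volume-regulated anion channels open when a cell swells and let chloride and small organic molecules out, so that water follows and the cell returns to its size. They are assembled from subunits of the leucine-rich repeat-containing 8 (Lrrc8) family. Lrrc8a, also known as SWELL1, is the subunit that a working channel needs, and it joins with Lrrc8b, Lrrc8c, Lrrc8d or Lrrc8e, which set what the pore passes. The family is described here in stromal cells of the bone marrow of mice with sickle cell disease. It holds 5 genes of the 52459 in the count table, chosen by their symbols, and 4 of them were among the 17316 genes with enough reads to be tested. The family was selected on an earlier result of these data, the difference of Lrrc8c between the genotypes. The values of Lrrc8c are therefore given as a description, without a test.

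The cells came from digested bone marrow and were sorted as live single cells without CD45, Ter119 and CD31 and with CD51 and CD140a. SS mice are Townes sickle mice homozygous for human sickle beta globin (hα/hα::βS/βS), a replacement that also brings the human Aγ-globin gene. SA mice carry 1 copy of this sickle replacement and 1 normal human beta globin (hα/hα::βA/βS). Both genotypes carry human alpha globin in place of the mouse genes, so mice with mouse globins were not a comparison here, and the labels give no ages. Each of 4 SS and 4 SA libraries, 1 per numbered mouse, was sequenced on 2 lanes, and totals ran from 24797857 to 31117007 counts. For SS replicate 4, the source and mouse group of 1 lane read SA although its title reads SS, and the title was followed. Date-like numbers in the titles are the same for all SA libraries and other for the SS libraries. Among the SS libraries, replicate 2 carries another such number than the rest. What the numbers stand for is not stated, and between SA and SS it cannot be told apart from genotype.

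The sorted antigens were present in every library: Pdgfra, encoding CD140a, had means of 338 ± 148 CPM, counts scaled to a common library size, in SA and 423 ± 64.9 CPM in SS (SD, n = 4), and Itgav, encoding CD51, 330 ± 85.4 and 584 ± 182 CPM. Transcripts of gated-out leukocytes were present too. The 15 pan-leukocyte markers, none at 0 in any library, summed to 4357, 4888, 1545 and 895 CPM in SA replicates 1 to 4 and to 2905, 454, 1208 and 404 CPM in SS replicates 1 to 4. SA replicates 1 and 2 and SS replicate 1 were thus the richest in leukocyte transcripts, and all 15 markers had a lower mean in SS. In bulk RNA, fewer cells of a type and less RNA per cell cannot be told apart.

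Lrrc8b, Lrrc8c and Lrrc8d lie side by side on the plus strand of chromosome 5 of GRCm38, from 105415775 to 105490074, 105519388 to 105613018 and 105699969 to 105832436. The gaps between them are 29313 and 86950 bases. Lrrc8a lies on chromosome 2 (30237715 to 30263790) and Lrrc8e on chromosome 8 (4226827 to 4237470).

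Bases from the RefSeq promoter windows of Lrrc8a and of the cluster members Lrrc8c and Lrrc8d (GRCm38.p6, plus strand) are shown because these genes show the 3 patterns found: even between genotypes, lower in every SS library, and high in the libraries richest in leukocyte transcripts. All 5 members matched a RefSeq window by symbol, and the bases shown run from the window's first base to the last one before any annotated start of the gene. Capitals mark motif matches on either strand: the cyclic AMP response element TGACGTCA, the GC box GGGCGG, the E-box CACGTG and the CCAAT box CCAAT. The windows are chr2:30237519-30237714 for Lrrc8a, chr5:105519221-105519344 for Lrrc8c and chr5:105699719-105699962 for Lrrc8d.
Lrrc8a: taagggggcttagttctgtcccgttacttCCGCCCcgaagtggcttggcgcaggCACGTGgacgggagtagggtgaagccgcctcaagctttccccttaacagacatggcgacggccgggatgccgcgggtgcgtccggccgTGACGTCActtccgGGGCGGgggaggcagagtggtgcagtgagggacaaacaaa
Lrrc8c: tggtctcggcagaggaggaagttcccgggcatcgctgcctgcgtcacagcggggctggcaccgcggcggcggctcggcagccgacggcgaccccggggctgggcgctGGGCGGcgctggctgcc
Lrrc8d: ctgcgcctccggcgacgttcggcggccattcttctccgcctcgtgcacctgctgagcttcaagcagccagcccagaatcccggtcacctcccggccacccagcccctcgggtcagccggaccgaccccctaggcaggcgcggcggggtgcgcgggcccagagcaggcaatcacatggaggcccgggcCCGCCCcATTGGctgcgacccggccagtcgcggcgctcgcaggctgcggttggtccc
The Lrrc8a window held 1 cyclic AMP response element, found in the same stretch of 0.818% of 27025 RefSeq windows, 1 E-box (4.23%) and 2 GC boxes (23.8% with at least 1). The Lrrc8c window held 1 GC box (13.0%), and the Lrrc8d window 1 GC box (32.0%) and 1 CCAAT box (34.0%). No motif searched overlapped another in these windows. GC content was 64.3%, 78.2% and 73.8%. A match in these letters does not show binding.

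Lrrc8c was lower in every SS library than in any SA library. It is a partner subunit first described in mouse as fad158, a gene induced in adipocyte differentiation. It was at 90.6, 95.4, 87.2 and 72.1 CPM in SA replicates 1 to 4 and at 43.6, 26.2, 53.6 and 42.4 CPM in SS replicates 1 to 4. The genotypes did not overlap: the lowest SA library, replicate 4, stood above the highest SS library, replicate 3. The means were 86.3 ± 10.1 CPM in SA and 41.5 ± 11.4 CPM in SS (SD, n = 4), a log2 fold change of -1.06 (SE 0.25), or 2.08 times as much in SA. These values rest on 1958 to 2747 counts per SA library and 723 to 1518 per SS library. Over all genes tested, 1.55% were lower in SS without overlap, 6.98% had an unadjusted p under 0.05 in either direction, and 0% passed the adjusted threshold of 0.05 in edgeR's quasi-likelihood test, where 0 of 17316 genes were called. Since Lrrc8c chose the family, its place in the first of these shares is not a result.

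**Figure D1:**
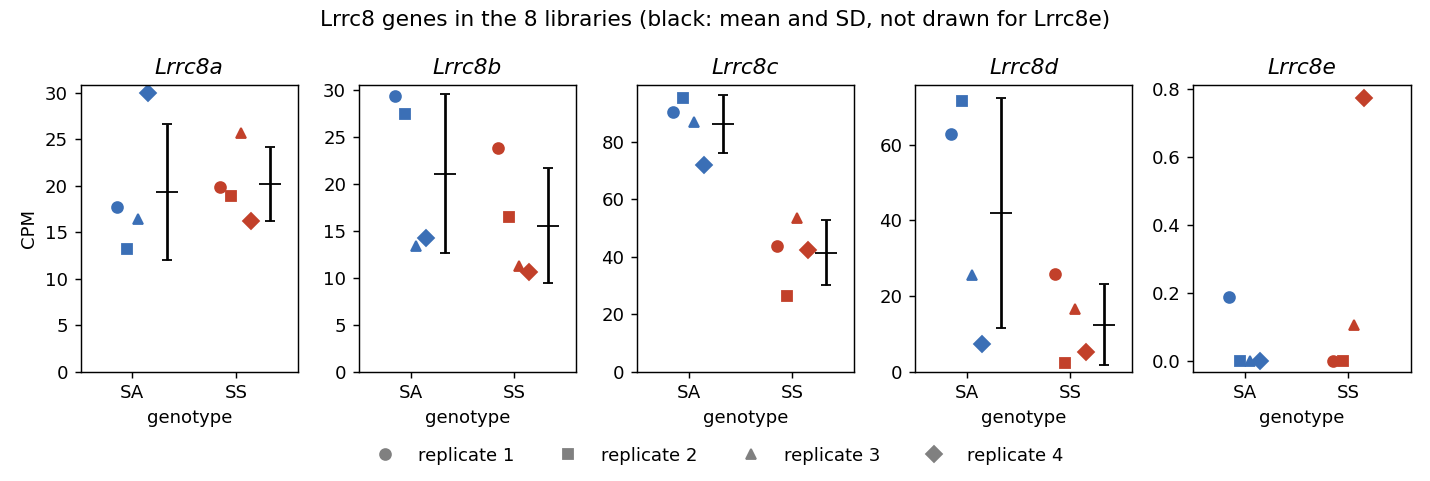
CPM of each Lrrc8 gene (y axis, own scale per panel) in the 4 SA (blue) and 4 SS (red) libraries, with the symbol giving the replicate and black bars the mean and SD. The genotypes separate for Lrrc8c, with SA from 72.1 to 95.4 CPM and SS from 26.2 to 53.6 CPM, and overlap for Lrrc8a, Lrrc8b and Lrrc8d, while Lrrc8e stays under 1 CPM.

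Lrrc8a, the subunit common to all these channels, had nearly equal means in the genotypes. It was at 17.7, 13.2, 16.4 and 30.0 CPM in SA replicates 1 to 4 and at 19.9, 18.9, 25.7 and 16.2 CPM in SS replicates 1 to 4. SA replicate 4 was the highest of all 8 libraries and SA replicate 2 the lowest, so the SS libraries lay within the SA range. The means were 19.3 ± 7.33 and 20.2 ± 3.99 CPM (log2 fold change 0.06, SE 0.36, edgeR adjusted p = 0.987). The sign of so small a difference turned when SA replicate 2, SA replicate 3 or SS replicate 3 was left out, with a range from -0.082 to 0.36 over single libraries left out.

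Lrrc8d gives the channel its passage for taurine and other uncharged organic osmolytes, as shown in human cell lines. Its levels were the most variable of the 4 tested members, at 62.8, 71.6, 25.5 and 7.40 CPM in SA replicates 1 to 4 and at 25.7, 2.39, 16.4 and 5.09 CPM in SS replicates 1 to 4. SA replicates 1 and 2 were far above the rest, and SA replicate 4 lay below SS replicates 1 and 3, so the genotypes overlapped. Means were 41.8 ± 30.4 CPM (SA) and 12.4 ± 10.8 CPM (SS), with n = 4 (log2 fold change -1.75, SE 0.80, edgeR adjusted p = 0.716). The fold change was larger than that of Lrrc8c, but so was the spread, with coefficients of variation of 72.7% and 86.7% in SA and SS against 11.7% and 27.4% for Lrrc8c. An antisense gene, Lrrc8dos, shares 218 exon bases with Lrrc8d and had 561 counts in SS replicate 1, 129 in SA replicate 1 and at most 20 elsewhere. No source used here states whether counting used strand.

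Lrrc8b, a partner subunit close in position to Lrrc8c, was at 29.3, 27.4, 13.4 and 14.2 CPM in SA replicates 1 to 4 and at 23.8, 16.5, 11.3 and 10.5 CPM in SS replicates 1 to 4. The higher values belonged to SA replicates 1 and 2 and SS replicate 1, and the genotypes overlapped. The means were 21.1 ± 8.43 and 15.5 ± 6.12 CPM (log2 fold change -0.44, SE 0.42, edgeR adjusted p = 0.845).

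Lrrc8e, a partner subunit that passes cGAMP, the messenger of DNA sensing, in mouse and human cells, did not pass the low-count filter. It had 5 counts in SA replicate 1, 3 in SS replicate 3 and 24 in SS replicate 4, and 0 in the other 5 libraries. A count of 0 allows up to 3 counts, which is 0.100 to 0.110 CPM in those 5 libraries, for counting error only. No difference was detectable at this depth.

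Lrrc8b and Lrrc8d had their 3 highest values in the 3 libraries richest in leukocyte transcripts. For Lrrc8d, the third, SS replicate 1 (25.7 CPM), was close to SA replicate 3 (25.5 CPM). The 3 highest values of Lrrc8c were all in SA. Within SA, Lrrc8c followed the order of the leukocyte sums (95.4, 90.6, 87.2 and 72.1 CPM in replicates 2, 1, 3 and 4), and within SS it did not. With the leukocyte score as a covariate, the log2 fold change of Lrrc8c was -0.83 (SE 0.28), that of Lrrc8d -0.12 (SE 0.46) and that of Lrrc8b 0.10 (SE 0.45). Without SA replicates 1 and 2, these were -0.94 (SE 0.32) for Lrrc8c, -0.40 (SE 0.90) for Lrrc8d and 0.18 (SE 0.50) for Lrrc8b. Leaving out SS replicate 1 as well gave -0.97 (SE 0.35), -1.05 (SE 0.90) and -0.12 (SE 0.50). In these 3 fits the estimates for Lrrc8b and Lrrc8d were within 1 SE of 0, except Lrrc8d without the 3 libraries, and those for Lrrc8c, the gene that chose the family, are given as a description.

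**Figure D2:**
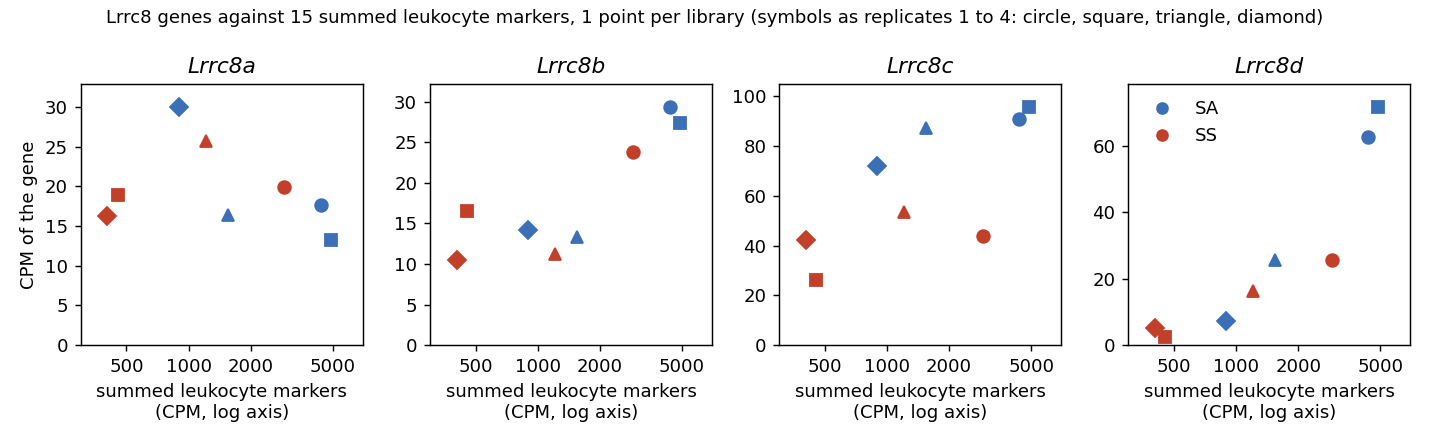
CPM of 4 Lrrc8 genes (y axes) against the summed CPM of 15 pan-leukocyte markers (x axis, logarithmic), 1 point per library, SA blue and SS red. Lrrc8d is at 62.8 and 71.6 CPM in the 2 SA libraries richest in leukocyte transcripts, and each SS point of Lrrc8c lies below each SA point.

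**Figure D3:**
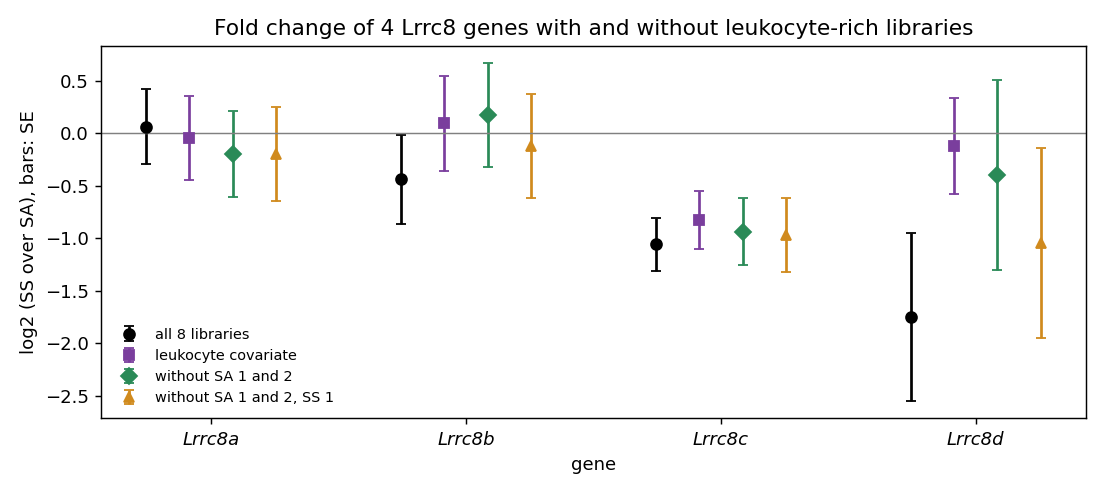
Log2 fold change of SS over SA (y axis, bars are SE) of 4 Lrrc8 genes with all 8 libraries, with the leukocyte score as covariate, and without the libraries richest in leukocyte transcripts. Lrrc8c runs from -1.06 to -0.83, and Lrrc8d from -1.75 to -0.12.

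Markers of most, but not all, single leukocyte classes had lower means in SS. All 12 B cell markers had a lower mean, with sums of 126 to 1559 CPM in SA and 18.5 to 162 CPM in SS, and Ms4a1 and Vpreb1 were at 0 in some libraries. With a B cell score as covariate, Lrrc8c had a log2 fold change of -0.84 (SE 0.36), Lrrc8b 0.57 (SE 0.49) and Lrrc8d 0.51 (SE 0.74). T and NK cell markers, 9 of 9 tested lower in SS, summed to 42.3 to 119 CPM in SA and 26.2 to 41.0 CPM in SS, with Ncr1 at 0 in some libraries. The lowest SA sum, in replicate 4, was close to the highest SS sum, in replicate 1. Neutrophil markers (13 of 13 lower) summed to 5975 to 34403 CPM in SA and 1319 to 16581 CPM in SS, and megakaryocyte markers (7 of 7 lower) to 6.55 to 341 and 6.40 to 36.5 CPM. The part of the T and NK cell, neutrophil and megakaryocyte transcripts in the Lrrc8c difference was not tested. Macrophage markers went the other way, with 7 of 8 tested higher and 1 lower in SS and sums of 101 to 653 CPM in SA and 147 to 921 CPM in SS. Stromal markers, 8 of 9 higher in SS, summed to 13941 to 31085 CPM in SA and 20838 to 30267 CPM in SS. The medians of these sums were 25258 CPM in SA and 24908 CPM in SS. Osteoblast markers had 5 of 7 lower and 2 higher in SS, erythroid markers 6 of 8 lower and 2 higher, and endothelial markers 3 of 8 lower and 5 higher.

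Per kilobase of all exon bases, which allows genes to be compared, Lrrc8c had the highest mean of the members. Per kilobase of the bases that no other gene shares, Lrrc8a did. Means over the 8 libraries were 8.35 ± 3.39 CPM per kb for Lrrc8c, 4.58 ± 1.27 for Lrrc8a, 2.72 ± 1.11 for Lrrc8b, 2.16 ± 2.10 for Lrrc8d and 0.032 ± 0.065 for Lrrc8e. Lrrc8b and Lrrc8d, neighbours in this order, did not differ beyond their spread. By its longest transcript Lrrc8d was at 4.73 CPM per kb, level with Lrrc8a. The place of Lrrc8a depends on counting, because 2853 of its 4308 exon bases are shared with a readthrough gene model, Gm28035, and 91 with an antisense gene. Gm28035 was counted as a gene of its own, with 47 counts in SS replicate 1 and 0 in every other library. If the Lrrc8a reads came from the 1364 unshared bases alone, Lrrc8a would be at 14.5 ± 4.02 CPM per kb and lead the family. Which bases its reads came from was not tested.

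On the scale of all exon bases, Lrrc8c was at 11.3 ± 1.32 CPM per kb in SA and 5.42 ± 1.49 in SS. On that scale it led in 7 of 8 libraries, and Lrrc8a led in SS replicate 2. By unshared bases, Lrrc8a was above Lrrc8c in every library except SA replicate 2 (9.70 against 12.5 CPM per kb). The ratios, sums and shares that follow use all exon bases and hold only on that scale. The ratio of Lrrc8c to Lrrc8a was 2.88, 4.06, 2.99 and 1.35 in the SA libraries, in order of replicate, against 1.24, 0.780, 1.18 and 1.47 in the SS libraries. SA replicate 4, where Lrrc8a was highest, lay inside the SS range. Summed over the family, the level was 22.2 ± 3.57 CPM per kb in SA and 13.4 ± 2.91 in SS, of which Lrrc8c made up 51.2% ± 5.54 and 40.2% ± 7.16, and Lrrc8a 21.2% ± 10.7 and 35.3% ± 5.61 (SD, n = 4). Both shares overlapped between the genotypes, and both sums contain the gene that chose the family.

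The tested genes next to the Lrrc8b, Lrrc8c and Lrrc8d cluster were Gbp4 and Gbp6 before it, with log2 fold changes of 1.08 (SE 0.92) and -0.18 (SE 0.66), and after it the zinc finger genes Zfp326, with 0.30 (SE 0.28), and Zfp644, with 0.20 (SE 0.18). Their adjusted p-values in edgeR were 0.827, 0.974, 0.839 and 0.836.

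Over the 8 libraries, Lrrc8c and Lrrc8d were the members most alike, with a Pearson r of log2 CPM of 0.81, and 0.79 after the genotype means were taken out. Lrrc8b and Lrrc8d followed with 0.67 and 0.58, while Lrrc8a had an r from -0.39 to -0.18 with the other tested members. All points share libraries and their leukocyte content. Of all genes of at least 5 CPM, those most like Lrrc8d were Acer3, Arl4c, Ptpre and Itgb2 (each r = 0.99), and Itgb2, a leukocyte integrin, is itself one of the 15 pan-leukocyte markers. Those most like Lrrc8c were Tbc1d31 and Cdk17 (both 0.97), Kctd20 and Spib (both 0.96), the last a transcription factor of B cells and plasmacytoid dendritic cells. For Lrrc8b they were Bmx, Rab7, Relt and Vasp (each 0.98), and for Lrrc8a Ficd (0.96), Zhx2 (0.95), Tmem205 (0.93) and Coq10a (0.93). With genotype means removed, Mpc1, which imports pyruvate into mitochondria, Atf7ip, Prdm4 and Tnfrsf26 were most like Lrrc8c (0.96 to 0.97), so none of the first 4 stayed.

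Swelling-activated channels work beside other volume regulators, and 7 lists of these and related genes were examined. In none did a gene pass the adjusted threshold in edgeR. Among 11 tested genes of osmolyte handling, 6 had a higher and 5 a lower mean in SS, with a median log2 fold change of 0.01 against -0.01 over all genes. One of them, Slc5a3, which takes up the osmolyte myo-inositol, separated the genotypes in the opposite direction to Lrrc8c. It was at 151, 127, 229 and 257 CPM in SA replicates 1 to 4 and at 362, 428, 300 and 484 CPM in SS replicates 1 to 4. Every SS library was above every SA library, which held in that direction for 2.36% of genes tested (191 ± 62.0 and 394 ± 79.5 CPM, log2 fold change 1.04, SE 0.26, adjusted p = 0.552). With the leukocyte covariate the log2 fold change was 0.72, and with the B cell covariate 0.49.

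The WNK kinases and cation-chloride cotransporters, which set cell chloride, had 6 of 14 tested genes higher and 8 lower in SS (median -0.09). Slc12a7, the potassium-chloride cotransporter KCC4, had means of 22.8 ± 13.1 and 42.2 ± 10.6 CPM with overlap (log2 fold change 0.89, adjusted p = 0.708). Slc12a5, or KCC2, known from neurons, averaged 0.697 CPM in SA and 6.84 CPM in SS, most of it in SS replicates 1 and 4 at 11.2 and 14.1 CPM. Other chloride and anion channels had 10 of 19 higher and 9 lower (median 0.01), with Ano6, a calcium-activated scramblase and channel, at 119 ± 19.4 and 163 ± 36.1 CPM (log2 fold change 0.45). Potassium channels, aquaporins and swelling sensors had 4 of 8 in each direction (median -0.05), among them Aqp1, a water channel, with a log2 fold change of -0.76. That median was -0.96 without SS replicate 1.

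Lists tied to what Lrrc8 channels pass, or to Lrrc8c itself, gave these values. Of 7 tested genes of cGAMP signalling and transport, 3 had a higher and 4 a lower mean in SS (median -0.14). Slc19a1, a folate carrier that also imports cyclic dinucleotides, had a log2 fold change of 0.56, and Mb21d1, the enzyme that makes cGAMP, -0.78. Pannexins and connexins, which form other large pores, had 4 of 6 tested genes higher (median 0.66, but -0.23 in edgeR without the low-count filter), with Gja4 at 2.47 ± 2.40 and 13.8 ± 8.30 CPM (log2 fold change 2.49, adjusted p = 0.695). Its log2 fold change was 1.51 with the leukocyte covariate, 1.19 with the B cell covariate and 3.12 without SA replicate 4. The adipocyte list had 6 of 10 tested genes higher and 4 lower (median 0.39). In it Pparg, the master regulator of fat cells, was at 43.3 ± 18.9 and 79.3 ± 27.4 CPM (log2 fold change 0.87, adjusted p = 0.695, but 0.24 with the B cell covariate). Fabp4, a fatty acid carrier, had a log2 fold change of 2.08 that was 0.67 without SS replicate 4 and 1.09 with the B cell covariate.

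**Figure D4:**
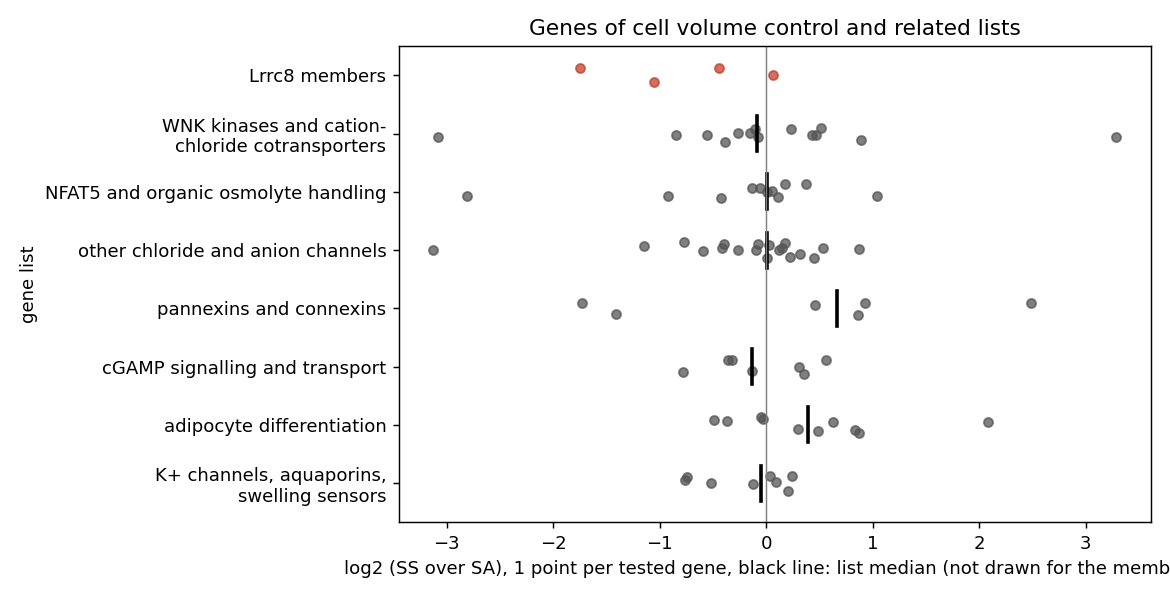
Log2 fold change of SS over SA (x axis) of each tested gene in the Lrrc8 family (red) and in 7 lists of related genes (gray), with a black line at each list's median. The medians of the lists lie between -0.14 and 0.66, and 3 of the 4 tested Lrrc8 genes lie below 0.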

How the data were processed

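RNA of sorted marrow stromal cells was sequenced in 8 libraries, 4 per genotype, with the 2 lanes of each mouse in 1 column. The authors deposited raw counts per gene symbol, and a normalized table that was not used here. Tools named in the submitters' processing notes are STAR, featureCounts, bcl2fastq and DESeq2; the builds are mm10 and GRCm38. No source used here states the annotation or strand setting. The p-values measure the spread between libraries of numbered mice, which includes technical spread. No label states how these mice relate, so their independence is assumed.

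The test was the robust quasi-likelihood test of edgeR 4.0.16 (R 4.3.3) after filterByExpr and TMM, with Benjamini-Hochberg adjustment over 17316 genes, checked on simulated counts. CPM uses TMM-adjusted totals, SE is the log2 fold change over the root of F, and log2 CPM had a prior count of 2. Positions are from GENCODE M21, lengths from its exons and promoter windows from RefSeq. Alternatives were DESeq2 1.42.0, limma-voom (limma 3.58.1), other scalings and filters, covariates, a replicate block and libraries left out. The leukocyte score is the mean log2 CPM of the 15 markers.

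Members and lists were chosen with earlier results of these data known. Named genes are the members, the 3 of smallest p per list with at least 1 CPM, the 2 tested neighbours on either side, the 4 most alike per member with at least 5 CPM, and sort checks. Only some of them are printed. Libraries of a genotype differed by more than counting noise, and each was counted as 1 replicate.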

Additional observations from a re-analysis of the deposited data

How the results depend on the processing

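Over 22 alternatives, Lrrc8d was lower in SS in 21 and Lrrc8b in 19. Lrrc8c was lower in all 22, from -1.20 to -0.83 (log2), and from -1.20 to -0.89 with single libraries left out. Because Lrrc8c chose the family and its genotypes did not overlap, its sign was largely fixed in advance. Its values are given as a description. With single libraries left out, Lrrc8a ran from -0.082 to 0.36, Lrrc8b from -0.72 to -0.25 and Lrrc8d from -2.39 (without SS replicate 1) to -1.36. Signs turned with the leukocyte covariate (Lrrc8a -0.043, Lrrc8b 0.096, Slc2a1 0.042, Tbk1 0.036), without SA replicates 1 and 2 (Lrrc8a -0.20, Lrrc8b 0.18, Slc2a1 0.54), without SS replicate 1 as well (Lrrc8a -0.20, Slc2a1 0.41) and with the B cell covariate (Lrrc8a -0.14, Lrrc8b 0.57, Lrrc8d 0.51, Slc2a1 0.70, Tbk1 0.25, Kcnn4 0.058, Aqp11 0.023). Aqp11 ran from -1.04 to 0.16 with single libraries left out, the latter without SA replicate 1. The cause was not tested.

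Genes called numbered 0 in edgeR (1209 at an unadjusted p under 0.05), 129 in DESeq2, 315 in DESeq2 without the low-count filter, 5 in edgeR without it, 3 with the B cell covariate, and 0 to 1 with single libraries left out, the 1 without SS replicate 1. DESeq2 without the filter passed 1 list gene, Slc5a3 (adjusted p = 0.0446). Lrrc8c, the gene that chose the family, was at -1.07 in DESeq2 with and without the filter, given as a description. limma-voom called 0 genes. The pannexin and connexin median was -0.23 without the filter in edgeR and -0.28 in DESeq2. Without the filter, this median also takes in genes that the filter removed. The B cell covariate, 3-library and unfiltered DESeq2 fits were chosen after seeing the data.

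With the replicate number as a block, log2 fold changes were 0.12, -0.43, -1.09 and -1.63 for Lrrc8a to Lrrc8d and no gene was called. The deviations of same-numbered libraries had correlations of 0.22, -0.15, -0.02 and 0.14, and replicate 1 alone matched its own number best. These values show no clear pairing by number. They cannot settle whether one exists, because leukocyte content also varied between libraries. Lrrc8e, at 0 in 5 libraries, is limited by depth.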
